A study of Mus musculus with 4 samples.

Results

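The Six-family, Eya and Dach genes form a conserved regulatory network, and 9 of its members, Six2, Six4, Six5, Eya1, Eya2, Eya3, Eya4, Dach1 and Dach2, were followed here out of 16637 genes named on the array. All probes annotated to one of these symbols were taken, which gave 14 probes. Of the 9 genes, 4 had 1 probe and 5 had 2 probes. The samples were whole mandibles of C57BL/6 mouse embryos at E11.5, read on 4 one-colour Cy5 microarrays. The control group was wild-type (2 arrays). The Bmp4 OE group carried a conditional Bmp4 overexpression and received doxycycline (dox) for 24 hours before collection (2 arrays). The labels name neither the promoter nor the cell type that drives the transgene, do not say whether wild-type embryos were given dox, and do not say whether 2 arrays of a group came from separate embryos. Whether genotype and drug can be told apart is therefore unknown, and every p-value reflects array-to-array spread that may be technical.

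Six-family proteins bind DNA through a homeodomain beside a domain of their own. Eya proteins are coactivators that enter the nucleus with them and also carry phosphatase activity. Dach proteins are nuclear cofactors, related to the Ski oncoprotein, that often act as corepressors in the same complexes. In vertebrate embryos the network works downstream of or beside Pax genes in sensory placodes, kidney, muscle precursors and pharyngeal arches, and loss of Eya1 disturbs ear, kidney and branchial arch development.

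Bmp4, the overexpressed gene, read 11.96 and 12.07 in controls and 15.27 and 15.31 in Bmp4 OE arrays (normalised log2 intensity, as for every level given here), so the labels and the target gene match. Each array held 29922 probes with the same distribution of values, from 5.68 to 16, with a median of 7.95 and a lower quartile of 6.79. Arrays of 1 group correlated across probes with r = 0.993 in each group, and arrays of different groups with r from 0.974 to 0.981. All 12 mesenchyme markers read above the array median on every array, among them Hand2 and Dlx5, genes of the mandibular arch, from 8.45 to 8.66 and from 8.49 to 8.73. Epithelial, endothelial and erythroid markers were present too, so these levels do not by themselves tell mandible from another tissue.

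Of the 14 probes, limma called 5 lower and 0 higher with an adjusted p under 0.05. They read 4 genes, Eya1, Eya2, Eya4 and Six2. Over all probes 14.8% were called, 8.41% lower and 6.39% higher. At an unadjusted p of 0.05, 7 of the 14 probes were lower and 0 higher, against 17.2% and 15.7% of all probes. The difference between groups (Bmp4 OE minus control, log2) was below 0 for 10 probes and above 0 for 4, with a median of -0.205 against 0 over all probes. The groups did not overlap for 7 lower and 2 higher probes, whereas 31.0% of all probes were lower and 29.2% higher without overlap. At the study's own threshold, a change of at least 2-fold with an unadjusted p of 0.05, 3 of the 14 probes were lower and 0 higher, against 1.41% and 1.22% of all probes. In bulk tissue, fewer cells of a type and less RNA per cell cannot be told apart, and this holds for every fall given here.

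**Figure D1:**
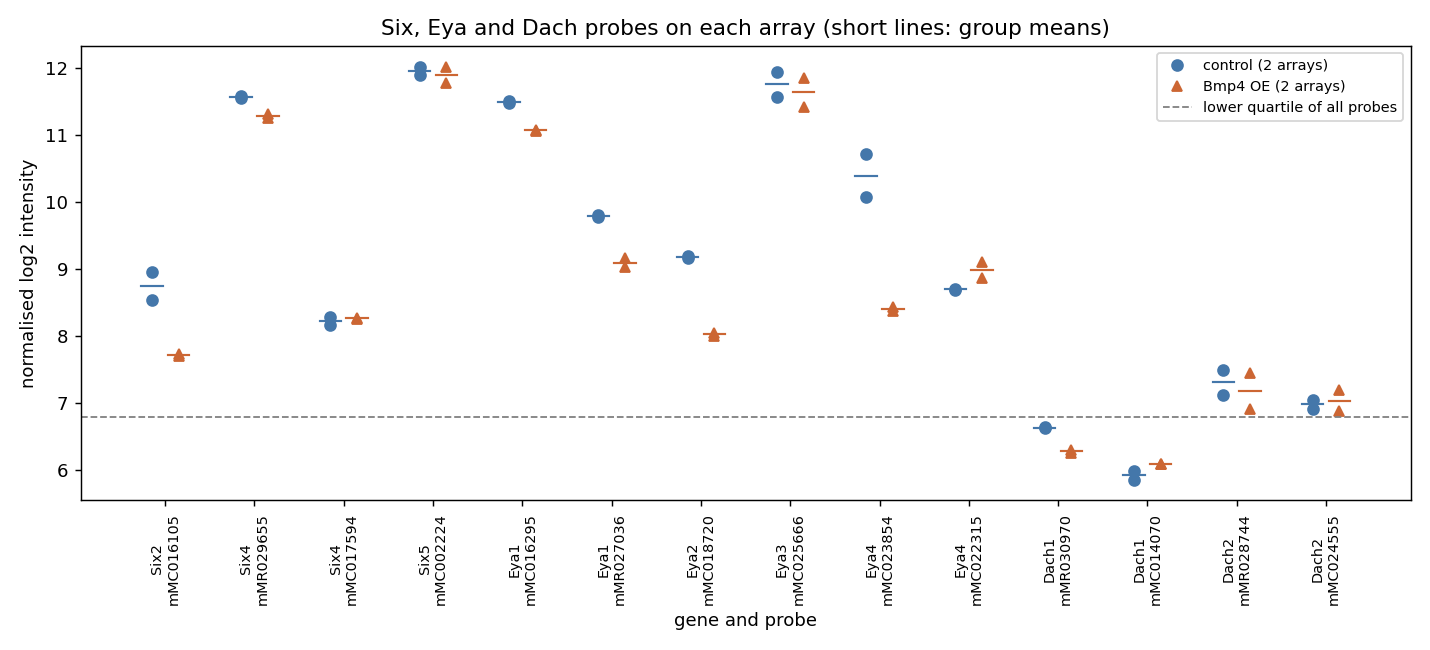
Normalised log2 intensity (vertical axis) of the 14 probes (horizontal axis) on each control array (circles) and Bmp4 OE array (triangles), with group means as short lines and the lower quartile of all probes, 6.79, as a dashed line. Eya2, Six2, both Eya1 probes and 1 of 2 Eya4 probes are lower in Bmp4 OE arrays, and both Dach1 probes lie below the dashed line.

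Among the Eya coactivators, Eya2, a family member of pharyngeal arches, placodes and muscle, had the smallest p of the 14 probes. Its single probe read 9.20 and 9.17 in controls and 8.0 and 8.05 in Bmp4 OE arrays. The replicates lay within 0.05 of each other and the groups were far apart. The fall was 2.23-fold (log2 difference -1.16, SE 0.10; limma, adjusted p = 0.00555), and 0.862% of all probes had a lower difference.

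Eya4, a gene of the ear and heart whose human counterpart is linked to hearing loss, was read by 2 probes that did not move together. Probe mMC023854 read 10.07 and 10.72 in controls and 8.37 and 8.43 in Bmp4 OE arrays. That is a 3.99-fold fall, the largest difference among the 14 probes (log2 difference -1.995, SE 0.22; limma, adjusted p = 0.00922), and 0.130% of all probes had a lower one. The 2 control arrays differed by 0.65, and the log2 difference was -1.67 without control replicate 2 and -2.32 without control replicate 1. Probe mMC022315 read 8.71 and 8.69 in controls and 9.11 and 8.87 in Bmp4 OE arrays, with a log2 difference of 0.29 that did not pass (adjusted p = 0.168).

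The 95% intervals of these log2 differences, -2.54 to -1.45 for mMC023854 and -0.02 to 0.60 for mMC022315, did not overlap. An exact permutation test over the arrays cannot show whether the probes' changes differ, since 2 arrays against 2 allow no p under 0.333. Averaging the 2 probes gave Eya4 a log2 difference of -0.85 (limma fit on gene means, adjusted p = 0.0110). Which Eya4 transcripts each probe reads is not known from the sources used here, so the fold of total Eya4 RNA is uncertain.

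Eya1, the family member whose loss in mice and people gives branchial arch, ear and kidney defects, fell at both of its probes, and by less. Probe mMR027036 read 9.77 and 9.80 in controls and 9.03 and 9.16 in Bmp4 OE arrays, a 1.61-fold fall (log2 difference -0.69, SE 0.11; limma, adjusted p = 0.0185). Probe mMC016295 read 11.51 and 11.47 in controls and 11.06 and 11.08 in Bmp4 OE arrays, a 1.34-fold fall close to the threshold (log2 difference -0.42, SE 0.10; adjusted p = 0.0477). Neither Eya1 probe had overlapping groups, and neither reached a 2-fold change. Of all probes, 3.97% and 11.7% had a lower difference than these 2 probes, in that order.

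Eya3, a broadly expressed member of the family, did not pass. It read 11.94 and 11.57 in controls and 11.42 and 11.85 in Bmp4 OE arrays. Its groups overlapped, its replicates differed by 0.37 and 0.43, and the 95% interval of its log2 difference ran from -0.61 to 0.37. The fall of 1.16 seen for Eya2 lies outside that interval, but the difference between these genes was not tested.

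Among the DNA-binding Six-family factors, Six2, a homeobox gene of craniofacial mesenchyme and of kidney progenitors, was the one that fell. Its single probe read 8.95 and 8.54 in controls and 7.74 and 7.71 in Bmp4 OE arrays, which is below the array median. The groups were separate, and the spread was wider in controls, 0.41, than in Bmp4 OE arrays, 0.03. The fall was 2.03-fold (log2 difference -1.02, SE 0.16; limma, adjusted p = 0.0185), and 1.34% of all probes had a lower difference. Without control replicate 1 the log2 difference was -0.815, under 2-fold, and without control replicate 2 it was -1.23.

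Six4, a factor of muscle precursors, did not pass at either probe. Probe mMR029655 read 11.58 and 11.55 in controls and 11.25 and 11.32 in Bmp4 OE arrays, lower without overlap (log2 difference -0.28, SE 0.10; limma, adjusted p = 0.123). Probe mMC017594 read 8.29 and 8.17 against 8.27 and 8.26, with overlapping groups and a log2 difference of 0.04. Six5, the neighbour of the gene mutated in myotonic dystrophy, read 11.89 and 12.02 in controls and 11.77 and 12.02 in Bmp4 OE arrays. Its log2 difference was -0.06, with a 95% interval from -0.38 to 0.26.

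Relatives outside the 9 genes did not pass: Six3, a forebrain and eye gene, read 7.38 and 7.07 in controls and 7.14 and 7.28 in Bmp4 OE arrays, and Six6, an eye and pituitary gene, read 6.08 and 6.46 against 6.66 and 6.41. Their groups overlapped, and neither had an unadjusted p under 0.05.

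The Dach cofactors gave no call. Dach1, a retina, limb and neural gene, lay below the lower quartile of all probes on every array. Its probe mMR030970 read 6.64 and 6.63 in controls and 6.30 and 6.26 in Bmp4 OE arrays, lower without overlap (log2 difference -0.355; limma, adjusted p = 0.0701). Its probe mMC014070 read 5.86 and 5.99 against 6.09 and 6.10, higher without overlap (log2 difference 0.17; adjusted p = 0.327).

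Dach2, a paralog of Dach1, read 7.50 and 7.12 in controls and 7.45 and 6.91 in Bmp4 OE arrays at probe mMR028744. Probe mMC024555 read 6.92 and 7.05 against 6.88 and 7.20. Both had overlapping groups, and their 95% intervals, -0.68 to 0.42 and -0.30 to 0.41, hold changes of either sign.

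**Figure D2:**
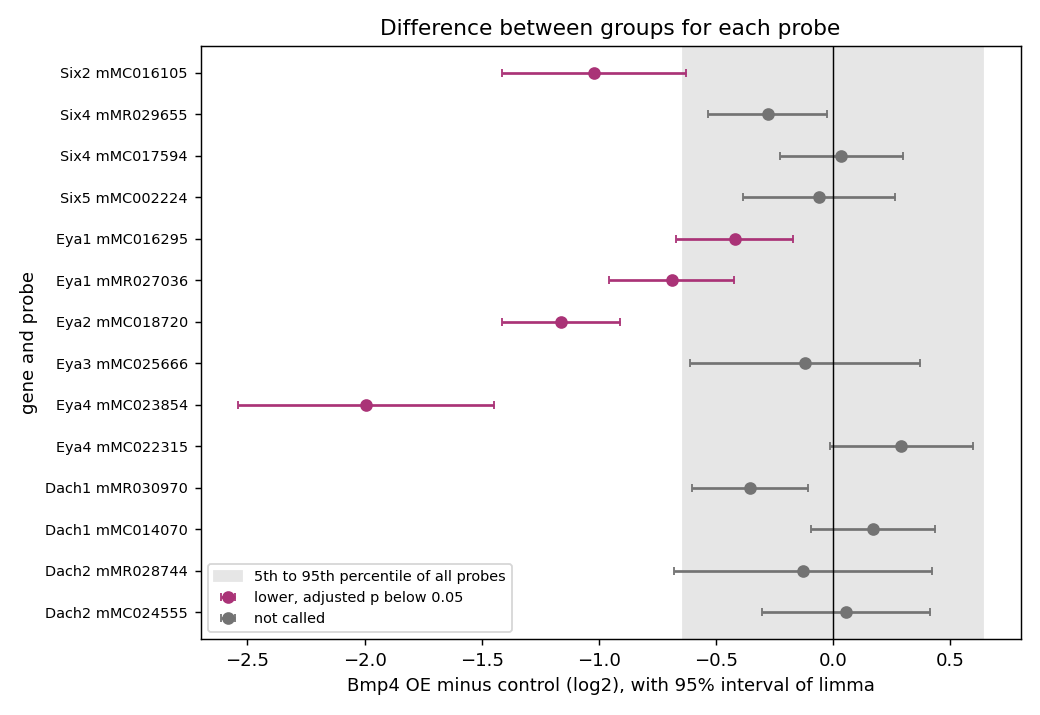
Log2 difference, Bmp4 OE minus control (horizontal axis), of each of the 14 probes (vertical axis) with its 95% interval from limma. The shaded band runs from the 5th to the 95th percentile of all probes, -0.64 to 0.64; Eya4 mMC023854, Eya2, Six2 and Eya1 mMR027036 have points to the left of it.

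The 5 calls rest on 2 arrays a group. With control replicate 1, control replicate 2, Bmp4 OE replicate 1 or Bmp4 OE replicate 2 removed, 1 residual degree of freedom was left. In these fits limma called 0 of the 14 probes and 0 of all 29922, and the lowest adjusted p among the 14 was 0.191, 0.138, 0.170 and 0.155, in that order. The sign of each of the 5 could not change in these fits, since their groups did not overlap, so its holding is no added evidence. Eya2 ranged from -1.185 to -1.135, while Eya3, Six5, both Dach2 probes and Six4 mMC017594, whose groups overlapped, took either sign. At the study threshold 2 of the 14 probes were lower without control replicate 1, in place of 3.

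**Figure D3:**
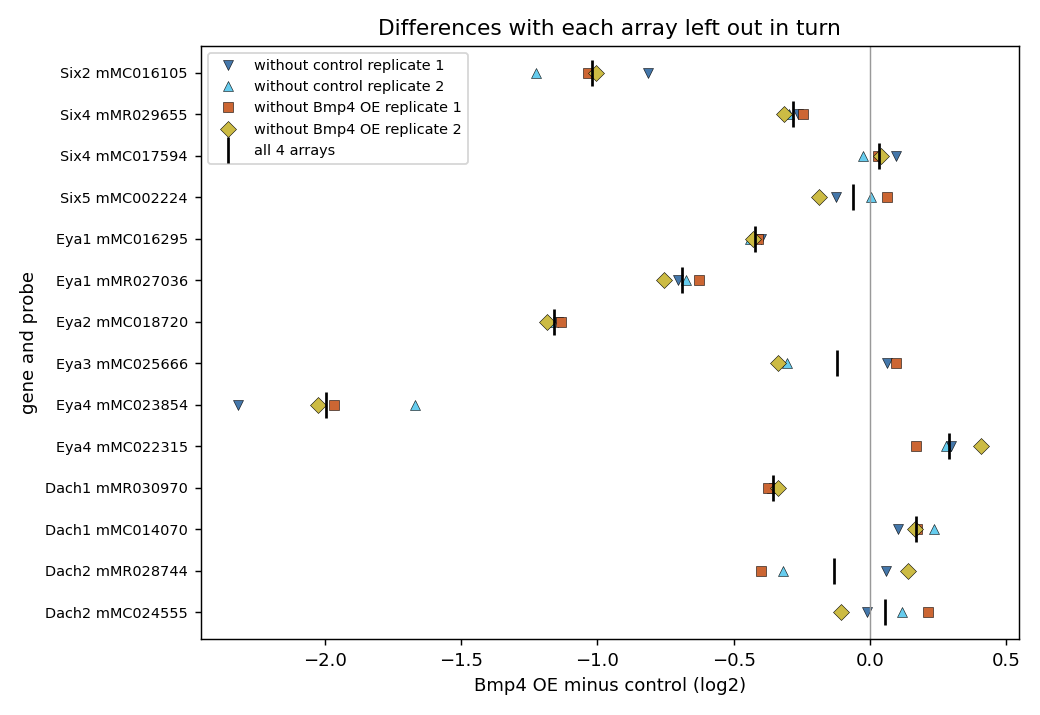
Log2 difference (horizontal axis) of each probe (vertical axis) with all 4 arrays (bars) and with 1 array removed in turn (symbols). The 5 called probes have groups without overlap and so must stay left of 0. Eya3, Six5, Dach2 and 1 Six4 probe, with overlapping groups, fall on both sides of it.

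Promoter sequence was read for called members from the RefSeq promoter table (GRCm38.p6), which held 7 of the 9 genes, Six2 and Eya4 among the 4 called. The windows, 250 bases before to 50 after the start, were searched on both strands for GTCTAGAC, the palindromic Smad element. They were searched for CAGAC, a short Smad-type element, and for GGCGCC, a GC-rich sequence bound by Smads of the BMP branch. The Six-family element searched was TCAGGTT, and no motif searched contains another. The 250 bases before the start of Six2 (chr17:85688255-85688504, minus strand) and of Eya4 (chr10:23349944-23350193, minus strand) are shown because both genes fell, with matches in capitals.
Six2: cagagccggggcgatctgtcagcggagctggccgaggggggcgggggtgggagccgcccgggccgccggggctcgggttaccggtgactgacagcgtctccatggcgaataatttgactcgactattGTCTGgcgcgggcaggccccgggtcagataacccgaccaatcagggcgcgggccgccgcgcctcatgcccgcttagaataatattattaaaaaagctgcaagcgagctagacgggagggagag
Eya4: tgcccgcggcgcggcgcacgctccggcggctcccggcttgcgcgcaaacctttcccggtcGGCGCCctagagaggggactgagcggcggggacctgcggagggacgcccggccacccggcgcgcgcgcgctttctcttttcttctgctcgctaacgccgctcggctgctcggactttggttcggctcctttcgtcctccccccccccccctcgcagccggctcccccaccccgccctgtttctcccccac

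Six2 held 1 match to CAGAC, on the other strand, and Eya4 held 1 match to GGCGCC, at -190 from the start shown. A further Eya4 entry, with another start and an overlapping window, placed the same site at -243. Of 32851 promoter windows, 49.6% held CAGAC, a common short run. The share was 11.9% for GGCGCC. It was 4.07% for TCAGGTT, the Six-family element, and 0.213% for GTCTAGAC. Members that were not called held matches too, CAGAC in Six5, Eya3, Dach1 and Dach2 and TCAGGTT in Six4. A match describes letters in this window and no binding.

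The Pax genes, which encode paired-domain factors that act with the network in several organs, showed 2 falls. Of 9 Pax genes, read by the brightest probe of each, 2 fell, 0 rose and 7 did not pass, against 9.54% of 16637 named genes lower and 7.39% higher by their brightest probes. Pax1, a gene of pharyngeal pouches and sclerotome, read 9.02 and 8.56 in controls and 6.67 and 6.43 in Bmp4 OE arrays (log2 difference -2.24; limma, adjusted p = 0.0050). Pax3, a neural crest and muscle precursor gene, read 10.06 and 10.08 against 8.32 and 8.58 (adjusted p = 0.00464). The median of the 9 was 0.01, and next in order of p were Pax6, at -0.345, and Pax5, at 0.27, which did not pass.

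Genes of cofactors that bind Six-family or Dach proteins, or act with them, went both ways. Of 14 measured, 4 rose, 2 fell and 8 did not pass, against 7.39% of named genes higher and 9.54% lower. The median log2 difference was -0.245. Skil, which encodes the Smad-restraining Ski relative SnoN and shares a domain with Dach proteins, read 11.37 and 11.49 in controls and 12.61 and 12.66 in Bmp4 OE arrays (log2 difference 1.21; limma, adjusted p = 0.00576). Its dimmer probe gave 0.03. Ski itself had log2 differences of -0.545 and -0.44 at its 2 probes and did not pass.

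Of the Tle genes, the Groucho family, Tle6, Tle2 and Tle4 rose, with log2 differences of 1.10, 1.07 and 0.655. Tle1, Tle3 and Tle5 did not pass by their brightest probes. The dimmer Tle2 probe gave 0.585, with overlapping groups, and did not pass. A dimmer probe of Tle3 and one of Tle1 fell, with -0.805 and -0.515. Ctbp2 and Ncor1, which are corepressor genes, fell by 0.595 and 0.55 on the log2 scale. Sobp, which encodes a protein that binds Six-family factors, was read by 4 probes. The brightest gave -0.19 and did not pass, and probes mMR027848 and mMC003949 gave -0.955 and -0.60 and passed (adjusted p = 0.0234 and 0.0356).

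Genes reported to depend on Six-family or Eya factors in various organs also moved in both directions. Of 20 measured, 3 rose, 4 fell and 13 did not pass, beside the same 7.39% higher and 9.54% lower over named genes. The median log2 difference was 0.02. The growth factor genes Fgf10 and Fgf8 and the cyclin gene Ccnd1 fell, with log2 differences of -1.35, -0.965 and -1.11, and Dlk1, a Notch-related ligand gene, fell with -0.695. Sall1, a zinc finger gene of the kidney, rose by 0.865 at its brighter probe, while its other probe gave -0.03. Tnnc1, a troponin gene, and Ezr, a membrane linker gene, rose by 0.94 and 0.50, while the dimmer Ezr probe gave 0.01. Myog and Myod1, muscle regulators downstream of Six4, had log2 differences of 0.015 and 0.125 and did not pass.

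**Figure D4:**
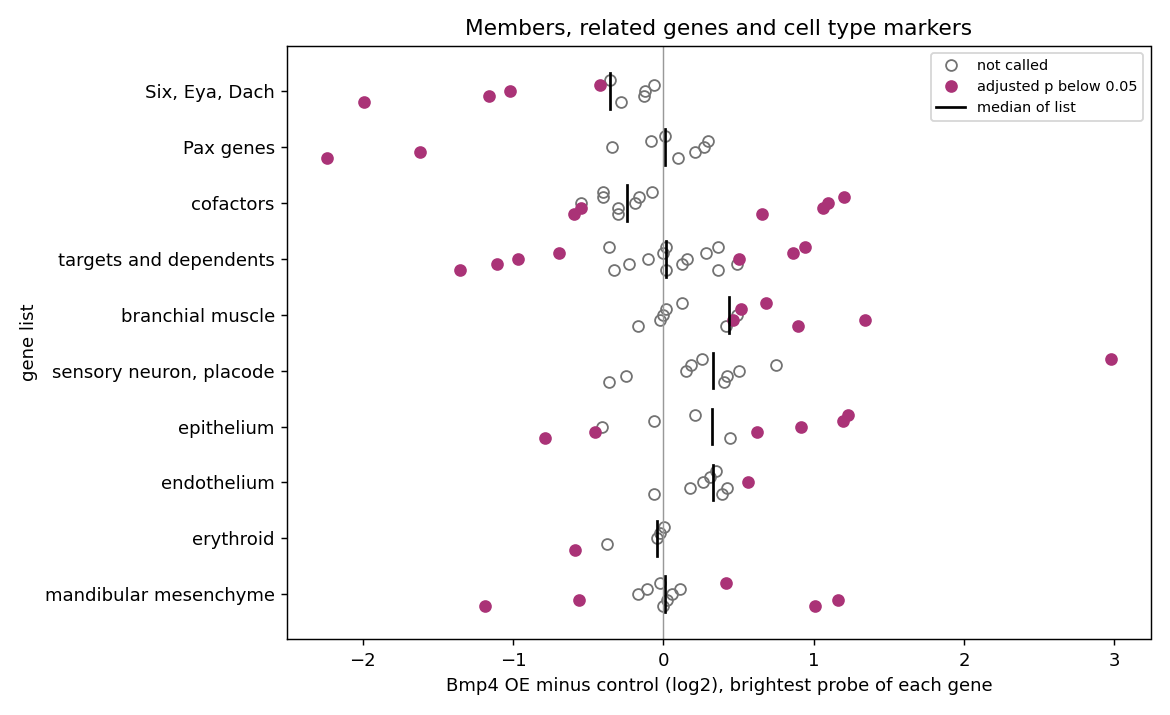
Log2 difference, Bmp4 OE minus control (horizontal axis), of the brightest probe of each gene in each list (vertical axis), filled where limma gave an adjusted p under 0.05, with the list's median as a bar. Filled points of the 9 network genes lie only left of 0, whereas filled cofactor and target genes lie on both sides.

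Markers of other cells of the mandible were read by the brightest probe too, and their counts stand beside 7.39% of named genes higher and 9.54% lower. Of 12 branchial muscle markers, 5 rose, 0 fell and 7 did not pass, and their mean level was 8.74 and 8.69 in controls and 9.06 and 9.16 in Bmp4 OE arrays. The 5 were the contractile and cytoskeletal genes Tnnt1, Myl4, Des, Ttn and Actc1. Dimmer probes of Ttn gave log2 differences from -0.29 to 0.24 and the dimmer Actc1 probe gave -0.085, and none of these passed. Myod1, Myog and Myf5, counted in this list too, did not pass, and Myf6 was below the lower quartile on every array.

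Of 10 sensory neuron and placode markers, 1 rose and 0 fell, and the mean level was 8.94 and 8.99 in controls and 9.51 and 9.42 in Bmp4 OE arrays. The 1 was Isl1, a homeobox gene, with a log2 difference of 2.98. The other 9 had mean levels of 8.89 and 8.96 in controls and 9.20 and 9.10 in Bmp4 OE arrays, and none of them passed. Of these 9, Pou4f1 and Ret had log2 differences below 0 and the rest above 0. Dimmer probes of Elavl3, Elavl4 and Neurod1 gave log2 differences from -0.395 to -0.035, and none of these passed. Epithelial markers gave 4 rises, Krt8, Krt18, Cdh1 and Cldn6, and 2 falls, Krt14 and Krt5, of 10. Their mean levels were 10.87 and 10.82 in controls and 11.08 and 11.19 in Bmp4 OE arrays. Of 8 endothelial markers, 1 rose, Cldn5, and 0 fell, a share near that of all named genes, with mean levels of 10.08 in both controls and 10.38 and 10.39 in Bmp4 OE arrays. Of 5 erythroid markers, 1 fell, Alas2, with mean levels of 14.93 and 14.89 in controls and 14.71 and 14.70 in Bmp4 OE arrays. The globin genes Hbb-y, Hba-x and Hbb-bh1 lay between 15.75 and 16, the top of the scale, and could show little change. Mesenchyme markers gave 3 rises and 2 falls of 12, at mean levels of 12.35 and 12.33 in controls and 12.42 and 12.38 in Bmp4 OE arrays. Prrx2, Msx1 and Dlx2 rose, with log2 differences of 1.165, 1.01 and 0.415. Twist1 and Col1a1 fell, with -1.185 and -0.56. Among the mesenchyme markers Vim read 16 on every array and could show little change either. The part of any of these cell types in the falls of Eya1, Eya2, Eya4 and Six2 was not tested.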

How the data were processed

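Per the labels' protocols, RNA was isolated with an RNeasy Micro kit, amplified with aminoallyl nucleotides and labelled with Cy5. The authors deposited 1 log2 value per probe and array. The base follows from a maximum of 16, and sorted columns were identical (largest difference 0), which is what quantile normalisation gives and which hides any shift shared by most genes. The sources used here do not give the scanner, background correction or software. Probes were named from the platform annotation, updated through RefSeq synonyms. Of 29922 probes 21020 had 1 symbol, 0 several and 8902 none.

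Groups follow the sample titles. A linear model (lmFit, then eBayes without trend; limma 3.58.1, R 4.3.3) was fitted to all probes without a filter, two-sided, with Benjamini-Hochberg adjustment over all probes, 2 residual and 3.59 prior degrees of freedom. The fit was tested on simulated data. The members and gene lists were chosen with earlier results of these data known. Every member probe was named, with the Six-family relatives. In the Pax, cofactor, target, branchial muscle, epithelial and mesenchyme lists the 4 genes with the smallest p were named. In the sensory neuron, endothelial and erythroid lists only the called genes were named by rule. Other list genes named in the text, and the mean without Isl1, were chosen after their values were seen. For genes with several probes the one with the highest mean stood in list counts. Levels of different probes were not otherwise compared. Alternatives were an offset, other scalings, filters on dim probes, a trend, a replicate block, removal of each array and, for lists, the mean of all probes. The number of arrays limits precision.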

Additional observations from a re-analysis of the deposited data

How the results depend on the processing

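The 5 falls among the 14 probes were called under log2 of the linear value plus 50, cyclic loess, median centring (no change in any value), both filters on dim probes and an intensity trend, with adjusted p-values up to 0.0492, that of Eya1 mMC016295. The filters kept 12 and 10 of the 14 probes, so some Dach values have no counterpart there. Across these fits the 5 differences were as close to 0 as -1.85 for Eya4 mMC023854, -1.03 for Eya2, -0.874 for Six2, and -0.643 and -0.407 for Eya1. With the offset 2 of the 14 probes passed the study threshold, in place of 3. With the replicate number as a block, limma called 0 of the 14 probes, 0 of all 29922, and 0 Pax, 0 cofactor and 0 target genes. The lowest adjusted p was 0.0745, and 8724 probes had an unadjusted p under 0.05. Deviations of same-numbered arrays from their group means correlated at -0.07. With 2 arrays a group both pairs give this same value, so it cannot show whether the numbers pair the arrays. Removing 1 array at a time gave 0 to 0 calls among the 14 probes, all probes and each of these lists, with 6020 to 7947 probes at an unadjusted p under 0.05. Both kinds of fit have 1 residual degree of freedom in place of 2. The mean of all probes of a gene gave 2 Pax, 8 cofactor and 5 target genes, against 2, 6 and 7 by the brightest probe. The values hold no background measure, so how far the Dach1 probes, below the lower quartile, lay above background is not known.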

Other observations

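Six3os1, a non-coding gene on the strand opposite Six3, was looked at after its values were seen, since it neighbours a relative of the network. Its 2 probes had log2 differences of 0.39 and -0.39 (Bmp4 OE minus control), with adjusted p-values of 0.201 and 0.115 in limma, and neither passed. The first read 6.64 and 6.87 in controls and 7.37 and 6.92 in Bmp4 OE arrays, and the second 7.77 and 7.90 against 7.30 and 7.59. Probe mMC007081 of another gene looked at alongside, 4930447C04Rik, read 9.60 and 9.85 in controls and 10.28 and 10.21 in Bmp4 OE arrays. It was called higher, close to the threshold (log2 difference 0.52; limma, adjusted p = 0.0494), as were 6.39% of all probes.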
